A study of Homo sapiens with 15 samples.

Results

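Transforming growth factor β (TGF-β) signaling was followed through 9 genes in MH7A cells, an established human synovial cell line with fibroblast features. They were 4 ligand genes (TGFB1, TGFB2, TGFB3 and INHBA), 2 receptor genes (TGFBR1 and TGFBR2), 2 SMAD genes (SMAD3 and SMAD7) and the target gene TGFBI. The genes were listed by name, and each was read from its transcript cluster, the set of probes that an array assigns to one gene. All 9 had 1 cluster on the array and reached the filter on dim signals, so that 9 of 18417 named genes are described, against 16872 genes tested.

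RNA was measured on 15 arrays, with 5 conditions in each of 3 separate experiments (n = 3 per condition). Resting cells received no agent. The other 4 conditions all received 15 pg/ml of the inflammatory cytokine IL-1β for 13 h, and 3 of these 4 also received glucosamine (GlcN), alloxan or both. GlcN, an amino sugar that feeds the attachment of O-linked N-acetylglucosamine (O-GlcNAc) to proteins, was given at 5 mM from 2.5 h before IL-1β. Alloxan, used against the O-GlcNAc transferase, was given with GlcN as a 30 min preincubation at 5 mM followed by 2 mM, and its concentration in the cells without GlcN was not stated separately. No condition held GlcN or alloxan without IL-1β. MH7A is 1 line, so the arrays show separate cultures of the same cells and not separate donors.

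TGF-β is secreted as a latent dimer bound to matrix proteins, and is released from them by integrins, proteases and thrombospondin. The free ligand joins a type II receptor, which phosphorylates a type I receptor, and that kinase in turn phosphorylates SMAD proteins that enter the nucleus with the shared partner SMAD4. SMAD7 is made in response and blocks the type I receptor. In the synovium, TGF-β is known for driving fibroblasts to make matrix, and the activins, dimers built from INHBA and its relatives, use the same SMADs through receptors of their own.

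The sequences just upstream of 3 genes are shown because TGFB2, TGFB3 and SMAD3 had the smallest p in the F test over the 5 conditions described below. Each is the 250 bases before the gene start in RefSeq (assembly GRCh38.p14), written 5′ to 3′ on the strand of the gene. TGFB2 lies at chr1:218345086-218345335 on the plus strand, TGFB3 at chr14:75983012-75983261 on the minus strand and SMAD3 at chr15:67065352-67065601 on the plus strand. Capitals mark the motif letters found.
TGFB2 promoter: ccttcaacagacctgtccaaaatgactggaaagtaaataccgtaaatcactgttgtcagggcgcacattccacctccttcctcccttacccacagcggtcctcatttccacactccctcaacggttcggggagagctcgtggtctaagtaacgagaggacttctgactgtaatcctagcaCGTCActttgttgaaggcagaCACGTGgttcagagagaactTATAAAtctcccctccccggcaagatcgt
TGFB3 promoter: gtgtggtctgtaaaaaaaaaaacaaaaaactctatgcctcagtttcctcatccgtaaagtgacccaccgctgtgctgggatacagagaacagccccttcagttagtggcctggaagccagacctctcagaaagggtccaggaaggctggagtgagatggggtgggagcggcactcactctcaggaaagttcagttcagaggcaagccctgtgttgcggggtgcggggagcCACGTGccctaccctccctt
SMAD3 promoter: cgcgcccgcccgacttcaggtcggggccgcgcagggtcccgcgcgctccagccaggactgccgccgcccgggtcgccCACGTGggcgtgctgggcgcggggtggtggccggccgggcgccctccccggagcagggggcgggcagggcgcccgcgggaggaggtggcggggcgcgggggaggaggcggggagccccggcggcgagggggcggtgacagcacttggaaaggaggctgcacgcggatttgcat
All 3 held the E-box CACGTG, at 49 to 44 bases before the start in TGFB2, 20 to 15 in TGFB3 and 173 to 168 in SMAD3. The other 6 of the 9 genes lacked these letters in the same window, and 6.49% of 27305 RefSeq promoters of this length held them. TGFB2 also held CGTCA at 70 to 66 bases before the start, the reverse complement of TGACG, which is part of the cyclic AMP response element TGACGTCA. TGACG was in 21.7% of promoters and the full TGACGTCA in 1.77%, the latter in 0 of the 9 genes. The TATA box TATAAA stood at 29 to 24 bases in TGFB2 and at 11 to 6 in INHBA, and was in 11.1% of promoters. The AP-1 site TGANTCA (6.6% of promoters), the SMAD palindrome GTCTAGAC (0.176%) and the amino acid response letters TGATGNAA (3.19%) were in 0 of the 9. Both strands were searched, the motifs were chosen partly with the sequences in view, and a match describes letters and no binding.

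The 5 arrays of an experiment had nearly equal medians, at 6.18 to 6.21 log2 units for experiment 1, 7.14 to 7.19 for experiment 2 and 7.49 to 7.54 for experiment 3. Signals were therefore compared within an experiment. The IL-1β-inducible genes TNFRSF9, IL6 and C3 were 1.92 ± 1.0, 1.24 ± 0.46 and 1.5 ± 0.91 log2 units above resting (SD, n = 3), positive in 3 of 3 experiments, each with a limma adjusted p = 0.169. NFKBIA gave 0.85 ± 0.47 (limma adjusted p = 0.266). The study listed these genes as raised by IL-1β on these same arrays, so their direction is no independent check. Among marker genes, 10 of 10 for fibroblasts reached the filter at the 20th percentile of array signal and 6 of those reached it at the 50th. For leukocytes 4 of 6 reached the first filter and 1 the second, for endothelium 3 and 0 of 3, and for epithelium 3 and 2 of 3. The first filter is a low bar and no detection call.

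**Figure D1:**
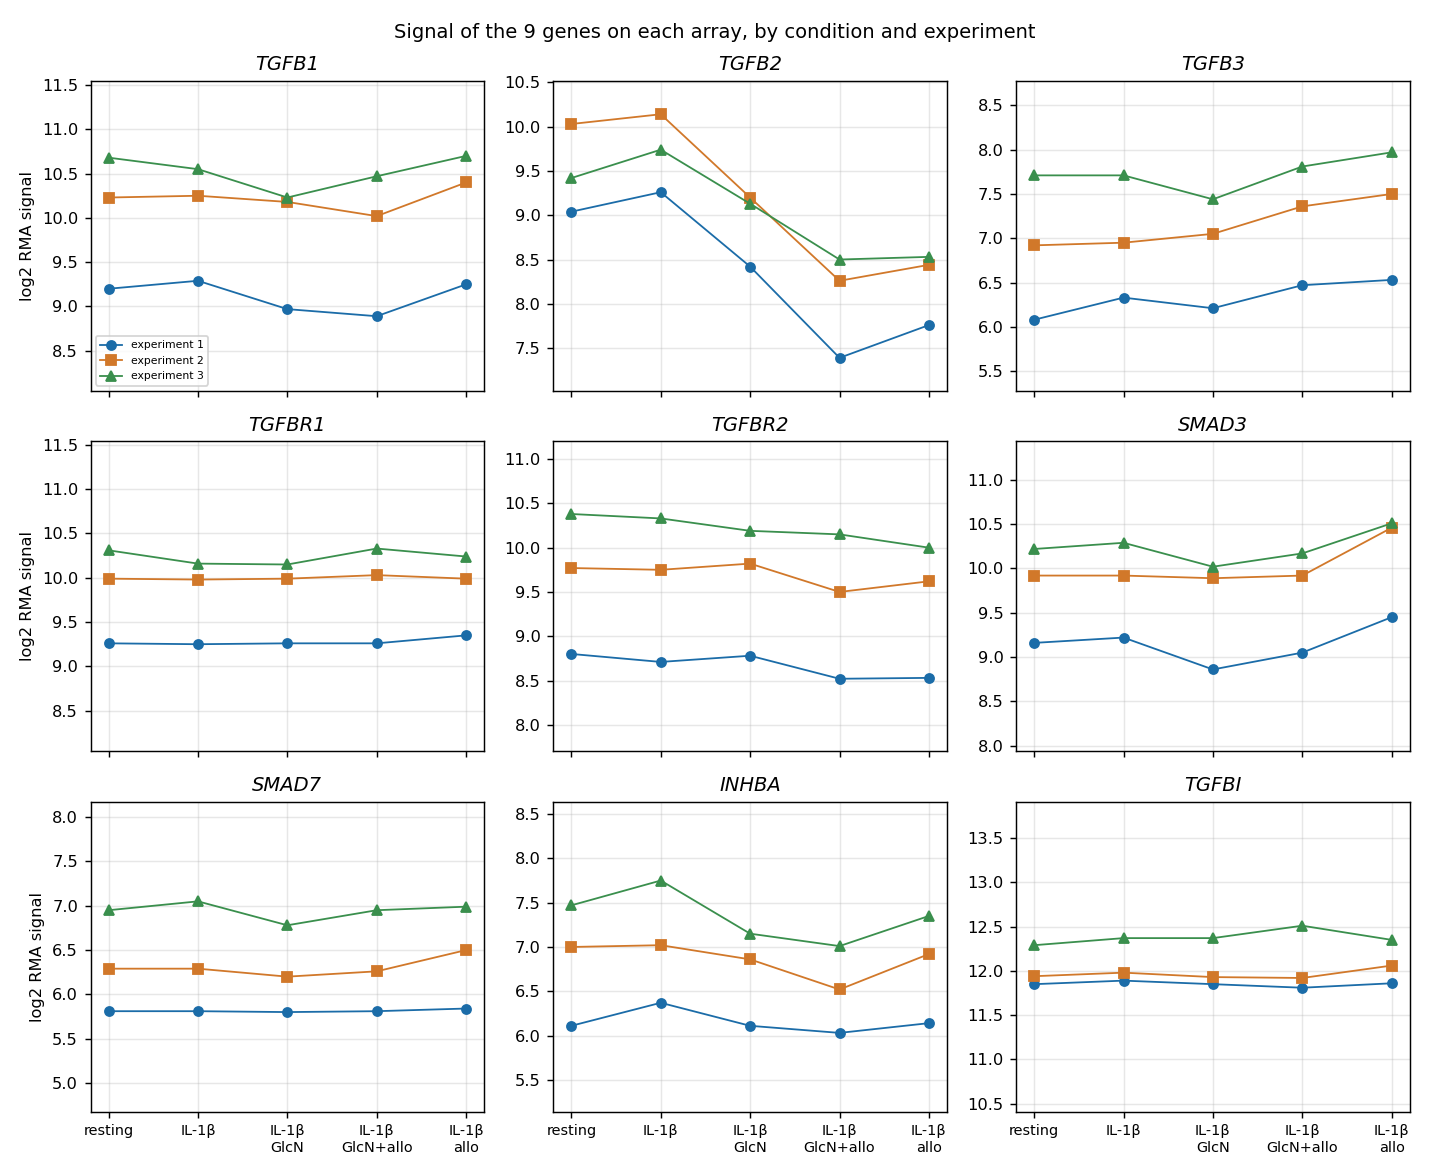
Signal (log2, after robust multiarray averaging) of the 9 genes on each of the 15 arrays, with the 5 conditions on the x axis; each line and symbol is 1 experiment and the lines only join arrays of the same experiment. TGFB2 ran from 7.39 to 10.14 and was lowest in the cells with alloxan in every experiment, while TGFBI stayed between 11.81 and 12.51.

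Across the 5 conditions, 6 of the 9 genes varied more than the spread within experiments allowed, against 25.0% of all genes tested. The test was limma's moderated F test with experiment as a block, a term that removes the level of each experiment, and Benjamini-Hochberg adjustment over 16872 genes. The adjusted p was 1.86e-05 for TGFB2, 0.000835 for SMAD3, 0.0062 for TGFB3, 0.00775 for INHBA, 0.0092 for TGFBR2 and 0.0149 for TGFB1. SMAD7 (adjusted p = 0.186), TGFBR1 (0.547) and TGFBI (0.832) did not pass the same limma test. Over the pairwise comparisons and the interaction of GlcN and alloxan, 12 of 54 tests passed, in 5 genes. The interaction is the difference between the GlcN effects with and without alloxan, and 0 of the 12 calls were for it. Shares over all genes are given for each comparison below. Without the experiment as a block, the differences between experiments count as error and the standard error of a difference was 0.596 log2 units for every gene. In that limma fit 0 of the 12 calls remained, every adjusted p of the 9 genes was 1, and 2 of their tests had an unadjusted p under 0.05. The methods' t-test, run on the same values, and the blocked fit over only the conditions compared also kept 0 of the 12. Every call below is therefore one of the blocked fit over all 5 conditions. Here and below, the methods' test was adjusted over all genes and run on signals not centred within an experiment. The study used that test without correction for multiple testing and with a fold-change cut-off. It also listed normalized values beside the signals, which were not used here. The loss of calls in this setting is therefore no repeat of the study's own test and does not bear on its calls.

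TGFB2, which had the largest differences of the 4 ligand genes among the 9, fell with each agent. In resting cells its signal was 9.04, 10.03 and 9.42 log2 units in experiments 1, 2 and 3, and with IL-1β alone 9.26, 10.14 and 9.74. With GlcN it was 8.42, 9.20 and 9.13. With alloxan it was 7.76, 8.44 and 8.53, and with both agents 7.39, 8.26 and 8.50. In all 3 experiments the order from high to low was IL-1β alone, resting, GlcN, alloxan, and GlcN with alloxan. The 3 arrays of each condition with alloxan were all below the 3 of IL-1β alone across experiments, as were the arrays with GlcN. The level of the arrays differed between experiments, so this ranking adds no support to the comparison within experiments.

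Against IL-1β alone, GlcN gave a TGFB2 difference of -0.79 ± 0.16 log2 units (SD, n = 3), or 1.73-fold lower, negative in 3 of 3 experiments (limma adjusted p = 0.00333). Alloxan gave -1.47 ± 0.24, or 2.77-fold lower (adjusted p = 7.03e-05, limma), and 5 of 16872 genes had a more negative difference there. GlcN with alloxan gave -1.66 ± 0.36, or 3.16-fold lower (adjusted p = 1.4e-05, limma), with 13 genes more negative. These 3 comparisons share the IL-1β arrays. Alloxan added to GlcN gave a further -0.87 ± 0.21, or 1.83-fold lower (adjusted p = 0.00358, limma). The calls for GlcN and for alloxan added to GlcN did not pass without experiment 1 (-0.77, adjusted p = 0.0854, and -0.79, adjusted p = 0.088, in limma) or without experiment 2 (-0.72, adjusted p = 0.0831, and -0.83, adjusted p = 0.0818). The calls for alloxan and for both agents passed with any 1 array or experiment left out. An array holds RNA of a whole culture, in which fewer cells with a transcript and less of it per cell cannot be told apart.

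The GlcN difference of TGFB2 was smaller where alloxan was present, at -0.37, -0.18 and -0.03 log2 units in the 3 experiments against -0.84, -0.93 and -0.61 without alloxan. The difference between these effects was 0.60 ± 0.14, positive in 3 of 3 experiments, with an unadjusted p of 0.00923 and a limma adjusted p = 0.326. It did not pass the threshold of 0.05 over all genes. IL-1β alone stood 0.22 ± 0.11 above resting (95% interval -0.08 to 0.51, limma adjusted p = 0.891).

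TGFB1, which encodes the ligand most studied in fibroblasts, had no call in the pairwise comparisons fitted. Its signal with IL-1β alone was 9.29, 10.25 and 10.55 log2 units, with GlcN 8.97, 10.18 and 10.23, with alloxan 9.25, 10.40 and 10.70, and with both 8.89, 10.02 and 10.47. The resting values were 9.20, 10.23 and 10.68. Both conditions with GlcN were below IL-1β alone in 3 of 3 experiments. The differences were -0.24 ± 0.15 for GlcN (limma adjusted p = 0.0601) and -0.24 ± 0.16 for both agents (limma adjusted p = 0.0501), just outside the threshold. Alloxan alone gave 0.08 ± 0.11 (95% interval -0.08 to 0.25). In the presence of alloxan, GlcN moved TGFB1 by -0.36, -0.38 and -0.23 log2 units in experiments 1, 2 and 3. That pair of conditions was not among the comparisons fitted, and its difference was not tested.

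TGFB3 moved the other way from TGFB2 with alloxan. Its signal was 6.08, 6.92 and 7.71 log2 units in resting cells, 6.33, 6.95 and 7.71 with IL-1β alone and 6.21, 7.05 and 7.44 with GlcN. With alloxan it was 6.53, 7.5 and 7.97, and with both agents 6.47, 7.36 and 7.81. The arrays with alloxan were the highest in each experiment and those with both agents came next. Alloxan raised TGFB3 by 0.33 ± 0.19, or 1.26-fold (limma adjusted p = 0.0217), and alloxan added to GlcN by 0.31 ± 0.052, or 1.24-fold (limma adjusted p = 0.045). GlcN gave -0.098 ± 0.18 and was lower in 2 of 3 experiments (limma adjusted p = 0.53). The alloxan call did not pass in limma without the IL-1β array of experiment 2 (0.25), the alloxan array of experiment 2 (0.28) or 3 (0.35), or experiment 1 (0.41), 2 (0.23) or 3 (0.37) as a whole, with adjusted p from 0.061 to 0.24. The TGFB3 call for alloxan added to GlcN was lost when any 1 of the 6 arrays compared or any 1 experiment was left out, with differences from 0.24 to 0.35, and with dim genes kept (adjusted p = 0.0514, limma).

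INHBA, the activin A subunit, was lower with GlcN and lower still with both agents. Its signal was 6.11, 7.0 and 7.47 log2 units in resting cells, 6.37, 7.02 and 7.75 with IL-1β alone, 6.11, 6.86 and 7.15 with GlcN, 6.14, 6.92 and 7.35 with alloxan and 6.03, 6.52 and 7.01 with both. The array with IL-1β alone was the highest and that with both agents the lowest in each experiment. The INHBA difference was -0.34 ± 0.23 with GlcN, or 1.27-fold lower (limma adjusted p = 0.0241), and -0.53 ± 0.20 with both agents, or 1.44-fold lower (limma adjusted p = 0.00147). Alloxan gave -0.24 ± 0.15 (limma adjusted p = 0.0888). The INHBA call for both agents passed with any 1 array or experiment left out. The call for GlcN did not pass without the IL-1β array of experiment 1 (-0.36) or 3 (-0.25), the GlcN array of experiment 3 (-0.27), or experiment 1 (-0.38), 2 (-0.43) or 3 (-0.21). INHBA was a dim gene, at or above the median of its array on 2 of 15 arrays.

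**Figure D2:**
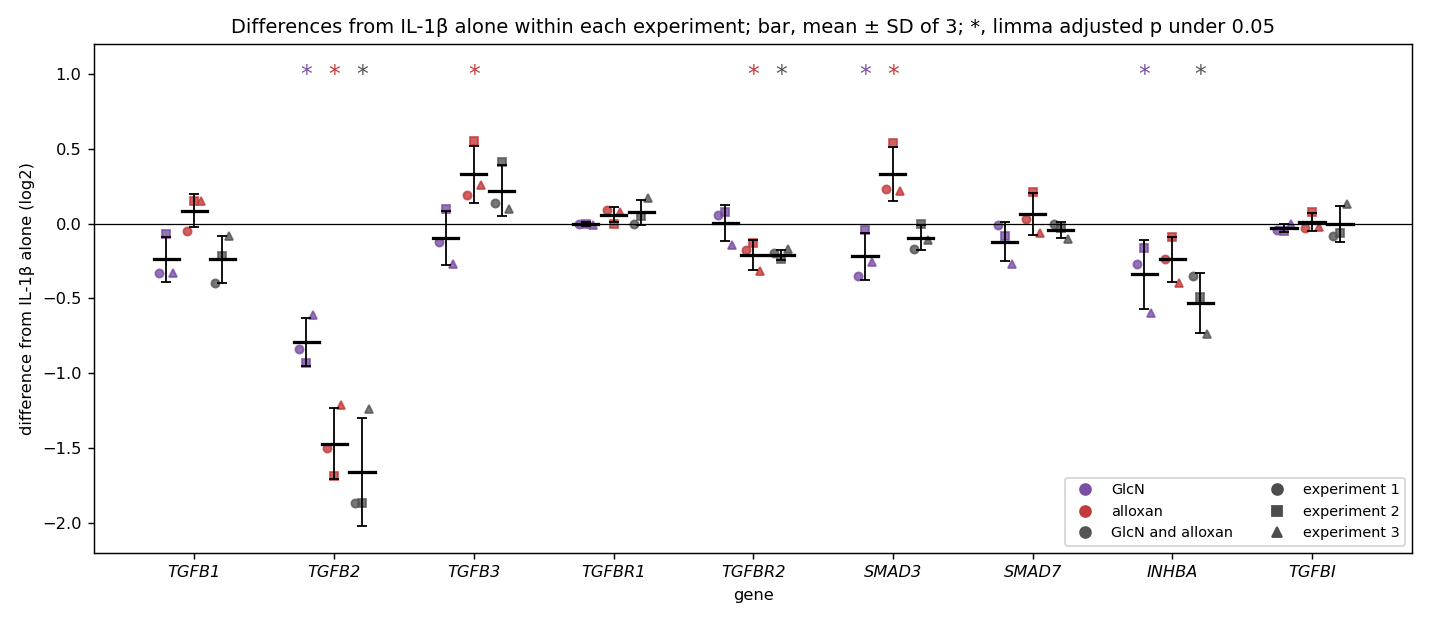
Log2 difference from IL-1β alone (y axis) of the 9 genes (x axis) with GlcN, alloxan or both; symbols are the 3 experiments, bars the mean and SD of 3, and asterisks a limma adjusted p under 0.05 with experiment as a block. TGFB2 lay lowest with every agent, TGFB3 and SMAD3 rose with alloxan, and TGFBR1 and TGFBI stayed near 0.

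The receptor genes differed from each other. TGFBR2, the type II receptor that binds the ligand first, had 8.71, 9.75 and 10.33 log2 units with IL-1β alone, 8.78, 9.82 and 10.19 with GlcN, 8.53, 9.62 and 10.00 with alloxan and 8.52, 9.50 and 10.15 with both. Resting cells had 8.80, 9.77 and 10.38. The conditions with alloxan held the lowest 2 arrays in each experiment. The difference was -0.21 ± 0.10, or 1.16-fold lower, for alloxan (limma adjusted p = 0.0325) and -0.21 ± 0.035, or 1.15-fold lower, for both agents (limma adjusted p = 0.0297). For GlcN it was 0.0025 ± 0.12 (95% interval -0.12 to 0.13), and for alloxan added to GlcN -0.21 ± 0.15 (limma adjusted p = 0.0547). Both TGFBR2 calls were lost in limma when the IL-1β array of any 1 experiment was left out (-0.18 to -0.23) and without experiment 1 or 2 (-0.19 to -0.25). The alloxan call was also lost without the alloxan array of experiment 1 (-0.21) or 3 (-0.17) or without experiment 3 (-0.16), and the call for both without their array of experiment 1 (-0.19) or 2 (-0.17).

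TGFBR1, the type I receptor kinase, was flat. Its arrays lay between 9.25 and 9.35 log2 units in experiment 1, between 9.98 and 10.03 in experiment 2 and between 10.15 and 10.33 in experiment 3. The 95% intervals of its 5 pairwise differences lay between -0.15 and 0.18. Of the 30 pairs of arrays within an experiment, 6 had the same TGFBR1 value to every digit given, against 16.6% of such pairs over all genes tested. Robust multiarray averaging can return identical values, and its part in the small spread of this gene was not tested.

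SMAD3, a SMAD that carries the TGF-β signal to the nucleus, as SMAD2 also does, moved in opposite directions with the 2 agents. It had 9.16, 9.92 and 10.22 log2 units in resting cells, 9.22, 9.92 and 10.29 with IL-1β alone and 8.86, 9.89 and 10.02 with GlcN. With alloxan it had 9.45, 10.46 and 10.51, and with both 9.05, 9.92 and 10.17. The alloxan array was the highest and the GlcN array the lowest in each experiment. Alloxan raised SMAD3 by 0.33 ± 0.18, or 1.26-fold (limma adjusted p = 0.00657), and GlcN gave -0.22 ± 0.16, or 1.16-fold lower (limma adjusted p = 0.049), each in 3 of 3 experiments. With both agents the difference was -0.094 ± 0.085 (95% interval -0.23 to 0.05).

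The SMAD3 call for alloxan did not pass in limma without experiment 1 (0.38, adjusted p = 0.0582) or 3 (0.38, adjusted p = 0.0775). The call for GlcN, close to the threshold, was lost without the IL-1β array of experiment 1 (-0.18) or 3 (-0.19), the GlcN array of experiment 1 (-0.17) or 3 (-0.21), experiment 1 (-0.15) or 3 (-0.19), with dim genes kept (-0.22) or after quantile normalization of all arrays (-0.20). In the presence of alloxan, GlcN moved SMAD3 by -0.40, -0.54 and -0.33 log2 units. That is the difference of the 2 conditions with alloxan, and it was not tested by itself. The interaction was -0.21 ± 0.26 (unadjusted p 0.0434, limma adjusted p = 0.437).

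SMAD7, the feedback inhibitor, was dim, under the median of its array on all 15 arrays. With IL-1β alone it had 5.81, 6.29 and 7.05 log2 units and with GlcN 5.80, 6.20 and 6.78. Among the 5 pairwise differences fitted, its largest was that of GlcN, -0.12 ± 0.13, lower in 3 of 3 experiments (limma adjusted p = 0.211). The 95% intervals of its 5 pairwise differences lay between -0.25 and 0.20. TGFBI, a secreted matrix protein named for its induction by TGF-β, had 11.89, 11.98 and 12.37 log2 units with IL-1β alone and 11.81, 11.92 and 12.51 with both agents. The intervals of TGFBI lay between -0.15 and 0.17, and none of its 5 fitted pairwise differences exceeded 0.055 in size.

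Counted by comparison, GlcN against IL-1β alone lowered 3 of the 9 genes (TGFB2, SMAD3 and INHBA) and raised 0, against 6.62% lower and 5.29% higher of all genes tested, 11.9% in all. Alloxan raised TGFB3 and SMAD3 and lowered TGFB2 and TGFBR2, 2 of 9 in each direction, against 6.13% and 7.21% of all genes, 13.3% in all. With both agents TGFB2, TGFBR2 and INHBA were lower and 0 were higher, against 8.47% and 9.06%, 17.5% in all. Alloxan added to GlcN raised TGFB3 and lowered TGFB2, 1 of 9 in each direction against 3.27% and 3.52%, 6.79% in all. With 9 genes these shares rest on 1 to 3 genes each. The median log2 difference of the 9 was -0.12 for GlcN, 0.059 for alloxan and -0.094 for both, against 0.007, 0.015 and -0.003 over all genes.

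For IL-1β against resting, 0 of the 9 genes and 0.0% of all genes passed in limma, with 0 of the 9 and 977 of 16872 at an unadjusted p under 0.05. The fit without the block, the methods' t-test and the block over these conditions only also called 0 genes, with 3, 2 and 1229 at an unadjusted p under 0.05. The 9 differences ran from -0.055 for TGFBR2 to 0.22 for TGFB2. For the interaction of GlcN and alloxan, 0 of the 9 passed, against 0.0711% of all genes (0.0119% higher and 0.0593% lower). An unadjusted p under 0.05 in limma was found for 2 of the 9, TGFB2 and SMAD3, and for 1860 of 16872 genes. The fit without the block and the block over these conditions only likewise called 0 of the 9.

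The rest of the pathway was read from 7 lists holding 101 further genes, of which 98 were measured and 96 tested. With GlcN, 4 of the 96 rose and 19 fell, 24.0% against 11.9% of all genes, and the median difference was -0.036. With alloxan 9 rose and 16 fell (26.0% against 13.3%, median -0.001), and with both agents 9 rose and 24 fell (34.4% against 17.5%, median -0.045). Alloxan added to GlcN gave 4 and 8 (12.5% against 6.79%), and the interaction 0 and 1. For IL-1β against resting 0 of the 96 passed, and 65 had a positive difference, with a median of 0.029. These shares describe lists chosen with earlier results known.

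**Figure D3:**
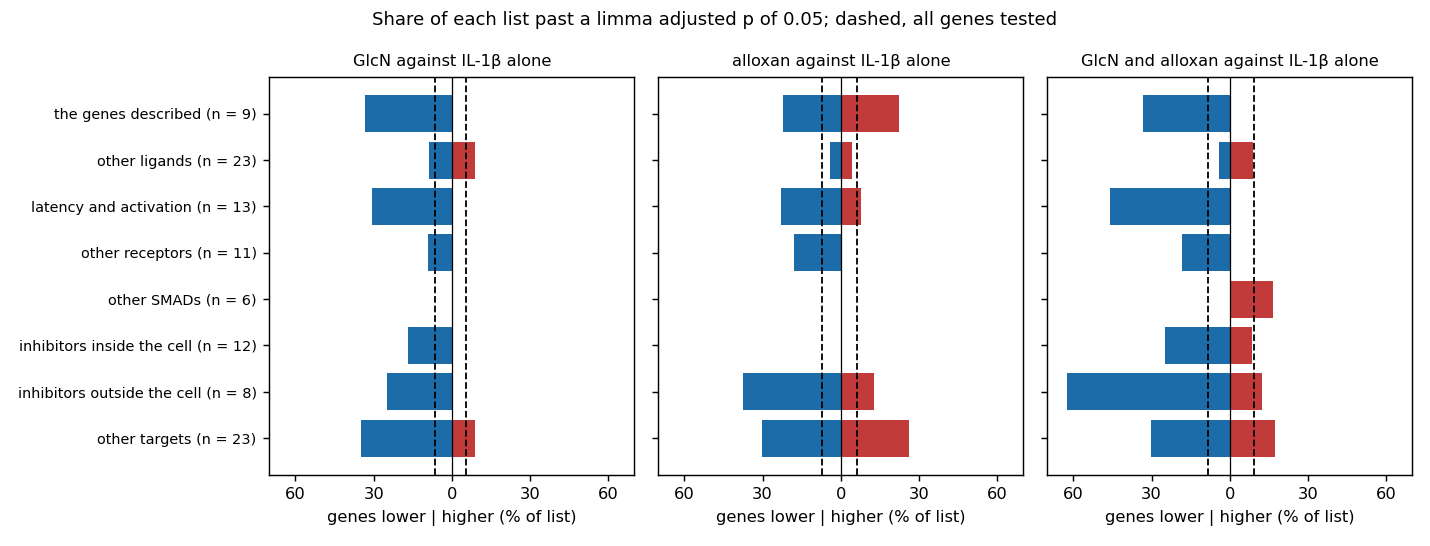
Share of each list (percent of its tested genes) called higher, to the right, or lower, to the left, than IL-1β alone by limma at an adjusted p under 0.05, for GlcN, alloxan and both; the dashed lines give the shares over all genes tested. The inhibitors outside the cell and the other targets held the largest called shares with both agents, 75.0% of 8 and 47.8% of 23.

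Among 23 genes listed as other ligands, 2 rose and 2 fell with GlcN, 17.4% against 11.9% of all genes. The list included BMP1, a protease and no ligand of the family, which was not called. INHBE, the subunit of activin E, rose by 3.24, 2.66 and 3.26 log2 units in the 3 experiments, a mean of 3.05 ± 0.34 or 8.3-fold (limma adjusted p = 2.33e-06). Among the 24 genes named from the lists, it was the only one whose named call also passed in limma without the block (adjusted p = 0.00259). The INHBE call was lost with the methods' t-test and with the block over only the conditions compared. Alloxan added to GlcN gave an INHBE difference of -1.52 ± 0.34 (limma adjusted p = 0.000457), and with both agents it stood 1.53 ± 0.43 above IL-1β alone. GDF15, a distant family member known from stressed cells, rose with alloxan by 1.63 ± 0.21 or 3.09-fold (limma adjusted p = 9.42e-06), with GlcN by 0.96 ± 0.26 and with both by 1.08 ± 0.26. Its interaction was -1.52 ± 0.23 (limma adjusted p = 0.00515), the only one to pass among the 96, and it was lost when any 1 experiment was left out.

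BMP5, a bone morphogenetic protein, differed by -0.57 ± 0.12 log2 units with both agents (limma adjusted p = 0.000161). GDF11, a ligand close to myostatin, was lower with GlcN by -0.42 ± 0.15 (limma adjusted p = 0.0415). The GDF11 call was lost when the IL-1β array of experiment 1 or 2, any 1 GlcN array or any 1 experiment was left out, with differences from -0.50 to -0.34.

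Of 13 genes for latency and activation, 0 rose and 4 fell with GlcN (30.8% called, against 11.9% of all genes). With alloxan 1 rose and 3 fell (30.8% against 13.3%), and with both 0 rose and 6 fell (46.2% against 17.5%). THBS1, a matrix protein that releases TGF-β from its latent form, was lower with both agents by -0.97, -1.12 and -0.63 log2 units, a mean of -0.90 ± 0.25 (limma adjusted p = 8.19e-05). FBN1, the fibrillin that anchors latent complexes in the matrix, gave -0.64 ± 0.16 (limma adjusted p = 0.000249). FBN1 differed by -0.026 ± 0.21 with GlcN (limma adjusted p = 0.896) and by -0.56 ± 0.079 with alloxan (limma adjusted p = 0.00107). ITGAV, the α subunit of the integrins that open the latent complex, gave -0.31 ± 0.12 with both agents (limma adjusted p = 0.0018). LTBP4, a latent TGF-β binding protein, was lower with GlcN by -0.44 ± 0.13 (limma adjusted p = 0.00182), a call lost without experiment 2.

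Of 11 other receptors 0 rose in any comparison. With GlcN 1 fell (9.09% against 11.9% of all genes), with alloxan 2 (18.2% against 13.3%) and with both 2 (18.2% against 17.5%). Each share rests on 1 or 2 genes and lay near that of all genes. ENG, the coreceptor endoglin, was lower with both agents by -0.64, -0.84 and -0.86 log2 units, a mean of -0.78 ± 0.12 (limma adjusted p = 8.66e-06). It was also lower with GlcN, by -0.71 ± 0.092 (limma adjusted p = 2.45e-05), and with alloxan, by -0.39 ± 0.12 (limma adjusted p = 0.0014). TGFBR3, the coreceptor betaglycan that presents TGF-β2 to its receptor, gave -0.32 ± 0.22 with both (limma adjusted p = 0.0299). That call was lost when the IL-1β array of experiment 3, the array of both agents of experiment 2 or 3, or any 1 experiment was left out (-0.39 to -0.19). BMPR2, the type II receptor for bone morphogenetic proteins, gave -0.30 ± 0.25 with alloxan (limma adjusted p = 0.0421) and was lost without either compared array of experiment 1 or 3, or without those experiments (-0.45 to -0.21).

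Among 6 other SMADs, SMAD9, which carries bone morphogenetic protein signals, was higher with both agents by 0.22 ± 0.16 (limma adjusted p = 0.0339). The call was lost when the IL-1β array of experiment 1 or 2, the array of both agents of experiment 2 or 3, or any 1 experiment was left out (0.13 to 0.29). None of the 6 passed with GlcN or with alloxan, and SMAD9 was the only one called with both, 16.7% against 17.5% of all genes.

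The list of inhibitors inside the cell held 12 genes, among them USP15, which favours the signal and was not called. Of the 12, 0 rose and 2 fell with GlcN (16.7% against 11.9% of all genes). With alloxan 0 were called (against 13.3%), and with both 1 rose and 3 fell (33.3% against 17.5%). With both agents SMURF2 and NEDD4L, ubiquitin ligases that act on receptors and SMADs, gave -0.55 ± 0.18 (limma adjusted p = 0.00162) and -0.39 ± 0.14 (limma adjusted p = 0.00353). TGIF1, a corepressor of SMADs, gave -0.29 ± 0.11 (limma adjusted p = 0.0109), and PPM1A, a phosphatase, 0.18 ± 0.055 (limma adjusted p = 0.0291). SMURF2 differed by -0.45 ± 0.19 with GlcN (limma adjusted p = 0.00879) and by -0.18 ± 0.15 with alloxan (limma adjusted p = 0.236). The NEDD4L call was lost without experiment 3 and the TGIF1 call when any 1 experiment was left out. The PPM1A call was lost when any 1 experiment, any 1 IL-1β array or the array of both agents of experiment 2 or 3 was left out (0.14 to 0.21).

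Of 8 inhibitors outside the cell, 0 rose and 2 fell with GlcN (25% called, against 11.9% of all genes). With alloxan 1 rose and 3 fell (50% against 13.3%), and with both 1 rose and 5 fell (75% against 17.5%). GREM1, the bone morphogenetic protein antagonist gremlin, was lower with GlcN by -1.20, -1.28 and -1.08 log2 units, a mean of -1.19 ± 0.10 or 2.28-fold (limma adjusted p = 0.000159). NOG, the antagonist noggin, was lower with both agents by -0.70 ± 0.20 (limma adjusted p = 0.000502). FST, the activin-binding follistatin, was lower with GlcN by -0.64 ± 0.25 (limma adjusted p = 0.00612), and TWSG1, which binds bone morphogenetic proteins with chordin, was higher with alloxan by 0.25 ± 0.051 (limma adjusted p = 0.00256). The FST and TWSG1 calls were lost without experiment 2 or 3.

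The 23 other targets divided in direction. With GlcN 2 rose and 8 fell (43.5% against 11.9% of all genes), and with alloxan 6 rose and 7 fell (56.5% against 13.3%). With both 4 rose and 7 fell (47.8% against 17.5%). KLF10, an early TGF-β-inducible repressor, was lower with GlcN by -0.96, -0.86 and -1.01 log2 units, a mean of -0.94 ± 0.074 or 1.93-fold (limma adjusted p = 3.24e-06). CDKN1A, the cell cycle inhibitor, was higher with alloxan by 0.88 ± 0.029 (limma adjusted p = 3.17e-05). With GlcN it was lower, by -0.30, -0.26 and -0.53 log2 units, a mean of -0.36 ± 0.15 (limma adjusted p = 0.00608), and with both agents CDKN1A differed by 0.22 ± 0.023 (limma adjusted p = 0.0499). The CDKN1A call for GlcN was lost without experiment 1 or 2 (-0.42 to -0.28 over all alternatives), and that for both agents when any 1 of the arrays compared or any 1 experiment was left out (0.17 to 0.26), with dim genes kept, after quantile normalization and with an intensity trend. VEGFA, the vascular growth factor, was higher with GlcN by 0.72 ± 0.16 (limma adjusted p = 3.29e-05). ID2, a helix-loop-helix inhibitor that bone morphogenetic proteins induce, was higher with both agents by 0.63 ± 0.039 (limma adjusted p = 8.02e-05). These targets also answer to signals other than TGF-β.

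**Figure D4:**
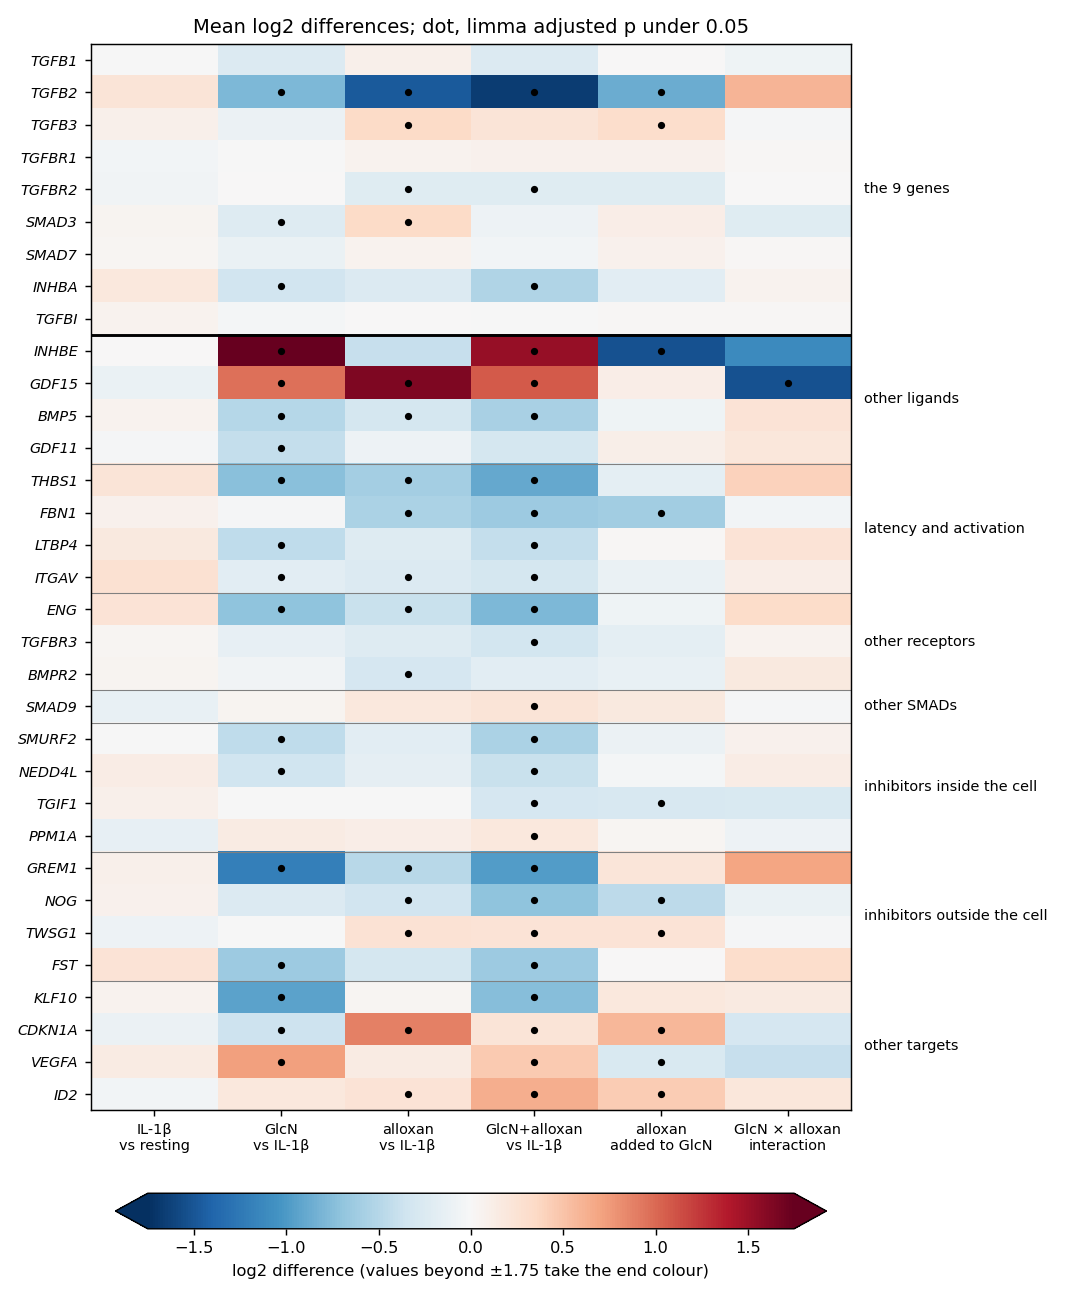
Mean log2 difference (colour) of the 9 genes and of 24 named genes of the other lists (y axis) in 6 comparisons (x axis); a dot marks a limma adjusted p under 0.05 with experiment as a block. TGFB2 is blue with a dot in the 4 comparisons of agents, and INHBE and GDF15 hold the strongest red.

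The genes most like TGFB2 over the 15 arrays, by Pearson correlation of values centred within each experiment, were GPC6 (r = 0.987), PCDH15 (0.982) and COL12A1 (0.98), and 195 of 16863 genes had r over 0.9. PCDH15 differed from IL-1β alone by -0.66 ± 0.23 with GlcN, -1.41 ± 0.17 with alloxan and -1.54 ± 0.25 with both. For SMAD3 they were LASP1 (0.951), MAP3K6 (0.949) and FOSL2 (0.945), with 26 genes over 0.9. For TGFB3 they were EIF4EBP2 (0.933), CMTM7 (0.928) and TRIM26 (0.923), with 9 over 0.9. Within the 9 genes TGFB2 and TGFB3 had r = -0.766, and TGFB2 and TGFBR2 r = 0.798. The arrays share conditions and experiments, so they describe these 15 arrays and are given without a test.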

How the data were processed

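RNA of MH7A cells was hybridized to Affymetrix Human Gene 1.0 ST arrays. The submitters' processing notes name Affymetrix Expression Console and RMA, whose versions were not given in the sources used. The values deposited by the authors are log2 signals of transcript clusters. RMA corrects background and equalizes distributions, here within an experiment, and can return identical values. Of 33297 clusters, 19460 carried 1 symbol in the platform annotation, 1754 several (left out) and 12083 none listed. For 19429 of those with 1 symbol, the symbol was taken from the RefSeq table of GRCh38.p14 by gene identifier, whether or not it differed. The brightest cluster stood for each of 18417 genes, and 16872 reached the 20th percentile of their array on at least 3 of 15 arrays.

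Conditions and experiment numbers came from the labels. Same-numbered arrays deviated together from group means (r from 0.621 to 0.848 over 30 pairs, against -0.723 to -0.068 over 75 other pairs). Deviations from a group mean cancel within the group, so negative r between the other pairs was built in. Arrays of an experiment were also equalized together, so these r show a shared level and cannot show that cultures were paired. The block follows the experiment numbers of the labels. No arrays were duplicates (highest r 0.998). Models were fitted to all arrays in R 4.3.3 with lmFit and eBayes of limma 3.58.1, with condition and experiment as terms, 8 residual degrees of freedom (11.1 after moderation), two-sided tests and Benjamini-Hochberg adjustment at 0.05. The code was tested on simulated data. Fold changes are 2 to the power of the mean log2 difference, and errors are the SD of 3 within-experiment differences. The number of arrays limits the precision. Alternatives were no block, the methods' t-test, only the conditions compared, other filters, the mean of clusters, quantile normalization, an intensity trend, and leaving out each array or experiment. Figures used matplotlib 3.10.9 in Python 3.11.15.

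The 9 genes, the lists and the tests were chosen with earlier results of these data known. Named were the 9 genes, up to 4 genes per list with the smallest p among those passing, and the 3 genes most correlated with each of the 3 genes of smallest F test p. Alternatives for list genes were added after seeing the data. A few listed genes are not analysed here.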

Additional observations from a re-analysis of the deposited data

Results flagged for a closer look

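GDF15 was the gene of the pathway whose GlcN difference changed with alloxan past the threshold. GlcN raised it by 1.23, 0.71 and 0.95 log2 units in the 3 experiments without alloxan and moved it by -0.53, -0.61 and -0.52 with alloxan present. The difference between these effects was -1.52 ± 0.23 (SD, n = 3; limma adjusted p = 0.00515), negative in 3 of 3 experiments. It did not pass without experiment 1, 2 or 3 as a whole, nor in limma without the block (adjusted p = 1), where the size was the same.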

How the results depend on the processing

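All counts are of the 9 genes called. Without the replicate block, with the methods' t-test, and with the block over only the conditions compared, each count was 0: lower with GlcN (3 in the blocked fit), higher and lower with alloxan (2 and 2), lower with both (3), and higher and lower with alloxan added to GlcN (1 and 1). With dim genes kept, alloxan added to GlcN raised 0. With a filter at the 50th percentile, where SMAD7 and INHBA were not among the genes, or after quantile normalization, it lowered 2, TGFBR2 being added. Leaving out 1 array or experiment gave 0 to 4 genes lower with GlcN, 0 to 2 higher and 1 to 2 lower with alloxan, and 0 to 0 higher and 0 to 2 lower with alloxan added to GlcN. With both agents, TGFBR2 kept its call in 2 of 9 such fits. TGFB1 was added there without the array of both agents of experiment 3 (-0.30, limma adjusted p = 0.0336). It was also added without experiment 3 as a whole (-0.31, limma adjusted p = 0.046). The causes were not tested.

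TGFB1 crossed the threshold with both agents (-0.24, limma adjusted p = 0.0348) and with GlcN (-0.24, adjusted p = 0.0423) at the 50th percentile filter, and with both agents also for the mean of clusters, quantile normalization and an intensity trend (-0.24 to -0.23, adjusted p from 0.0447 to 0.0497). Small differences changed sign. After quantile normalization these were TGFB1 for IL-1β (0.0059) and for alloxan added to GlcN (-0.013), TGFBR1 for GlcN (0.015), TGFBI for both agents (0.012), and the interactions of TGFB3 (0.015) and TGFBR2 (-0.020). With 1 array or experiment left out, the interaction ranged from -0.041 to 0.21 for INHBA, -0.087 to 0.10 for SMAD7, -0.17 to 0.033 for TGFB1, -0.092 to 0.090 for TGFB3, -0.057 to 0.071 for TGFBI, -0.025 to 0.075 for TGFBR1 and -0.14 to 0.10 for TGFBR2. IL-1β against resting ranged from -0.015 to 0.064 for SMAD7 and -0.066 to 0.057 for TGFB1. GlcN ranged from -0.027 to 0.029 for TGFBR1 and -0.035 to 0.071 for TGFBR2. Alloxan ranged from -0.013 to 0.12 for SMAD7 and -0.034 to 0.044 for TGFBI, both agents from -0.073 to 0.0058 for SMAD7 and -0.077 to 0.035 for TGFBI, and alloxan added to GlcN from -0.11 to 0.084 for TGFB1 and -0.047 to 0.062 for TGFBI.

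Over all genes, the fit without the block called 3 higher and 1 lower with GlcN, 0 and 1 with both agents, and 0 for the other comparisons. The block over only the conditions compared called 1 and 0, 124 and 152, 0 for alloxan and for alloxan added to GlcN, and 4 and 7 for the interaction. The interaction, 2 and 10 in the blocked fit, had 8 and 11 at the 50th percentile filter, 13 and 18 after quantile normalization and 4 and 11 with an intensity trend. The methods' t-test called 0 genes after adjustment and was not run for the interaction.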

Other observations

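The matrix genes among the targets were chosen for this description after their values were seen. Against IL-1β alone, COL1A1 differed by -0.81, -0.35 and -0.24 log2 units with GlcN, by -0.81, -0.53 and -0.70 with alloxan and by -1.08, -0.94 and -0.69 with both agents. COL3A1 differed by -1.09, -0.56 and -0.38 with GlcN, by -0.76, -0.45 and -0.49 with alloxan and by -1.34, -1.10 and -0.69 with both. POSTN, the matrix protein periostin, differed by -0.99 ± 0.27, -1.10 ± 0.19 and -1.40 ± 0.41 in the same order, negative in all 3 experiments. ACTA2, the smooth muscle actin of contractile fibroblasts, lay above IL-1β alone by 0.56 ± 0.29, 0.58 ± 0.44 and 0.49 ± 0.15. TAGLN and CNN1, other genes of the contractile apparatus, differed by -0.07 ± 0.061, 0.0078 ± 0.014 and 0.048 ± 0.08, and by 0.059 ± 0.051, 0.028 ± 0.049 and 0.0033 ± 0.12, in the same order. FN1, fibronectin, differed by 0.15 ± 0.16 with GlcN, positive in 2 of 3 experiments, by -0.34 ± 0.069 with alloxan and by -0.15 ± 0.14 with both. The values are described without a further test.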
